A study of Saccharomyces cerevisiae BY4741 with 4 samples.

Results

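Genes for tRNA modification and processing were followed through the loss of Spp1, which belongs to COMPASS. That complex trimethylates histone H3 on lysine 4 (H3K4me3) in budding yeast, and Spp1 is its PHD finger protein. The list names 59 genes by systematic name: tRNA methyltransferases, deaminases, pseudouridine and dihydrouridine synthases, wobble uridine enzymes, splicing and end processing enzymes and an export factor. A level in both strains was present for 56 of them, among 5038 genes with both levels in a table of 5219. TRM2, KTI12 and RIT1 were not analysed here. The mutant strain carried spp1D::KanMX6, in which a drug resistance cassette replaces SPP1, in a BY4741 background. The wild type was BY4741, MATa with his3Δ1, leu2Δ0 and ura3Δ0. Both were log-phase cultures in rich glucose medium. With 1 H3K4me3 library per strain, differences have no replicate check and carry no p-value.

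Transfer RNAs leave RNA polymerase III as precursors. They are trimmed at both ends, receive CCA at the 3′ end, lose introns where they have them, and are modified at many bases before and after export from the nucleus. Modifications in the anticodon loop tune decoding, and those in the body of the molecule hold its fold. The enzymes themselves are made from ordinary genes transcribed by RNA polymerase II, and H3K4me3 marks the 5′ part of such genes when they are transcribed. The values below therefore describe chromatin over the genes for the enzymes, not over tRNA genes.

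A level is the authors' normalised H3K4me3 signal for a gene, on a linear scale, and the percentage given for a gene is its level in the spp1 strain over its level in wild type. The sources used here do not say whether a level is an average per base, so how far the levels of different genes can be set against each other is unknown; ranks and medians of levels below describe the table as deposited. SPP1 itself, the replaced gene, had levels of 0.0982 in the spp1 strain and 1.89 in wild type. On the left arm of chromosome IV the spp1 levels scattered: log2 ratios had a standard deviation of 1.06 over its 212 genes and of 0.52 over the 4826 genes elsewhere. TRM8, TRM3 and PUS9 lie on that arm. The main medians and counts are also given without them, and single values on that arm are marked.

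As a list, these genes kept about the same share of H3K4me3 as all genes. Their median level in the spp1 strain was 27.2% of wild type, against 26.3% over all 5038 genes. The 95% interval of the list's median ran from 23.2% to 32.0%, an interval over genes that says nothing of replicates. Without the left arm of chromosome IV the median was 25.4%, just under the 26.2% of all genes outside it. On the log2 scale the list lay 0.04 above all genes, and without that arm 0.04 below them. Of the 56 genes, 28 lay above the all-gene median ratio and 28 below it, where 50% of all genes lie on each side by definition. Without that arm 25 of 53 lay above and 28 below. CCA1, one of the 28 in both cases, lay 0.02 below on the log2 scale. A level under 25% of wild type was seen for 26 of the 56 genes, beside 44.6% of all genes. A level under 50% was seen for 54, beside 93.8% of all genes. Without that arm 26 of 53 lay under 25% and 53 of 53 under 50%. These shares of the list are close to those of the whole table.

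**Figure D1:**
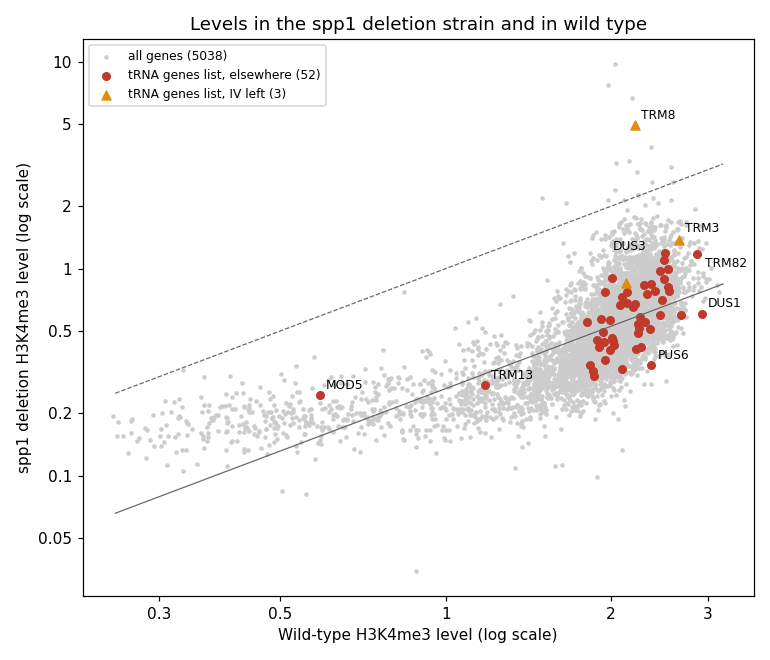
H3K4me3 level in the spp1 strain against the level in wild type, both on log scales, for all 5038 genes (grey) and 55 tRNA modification and processing genes (red, with the 3 on chromosome IV left in orange); the dashed line is equality and the solid line the all-gene median of 26.3%. Of the 56 genes 38 lie above the all-gene median wild-type level, MOD5 and TRM13 have the lowest wild-type levels, and TRM8 is the single member above equality.

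Many of the genes stood high in the wild-type ranking. The list's median level was 0.580 in the spp1 strain and 2.21 in wild type, and that of all genes 0.494 in the spp1 strain and 2.01 in wild type. In the spp1 strain 36 of the 56 genes lay above that strain's all-gene median level, beside 50% of all genes, and 7 were in its top 10%, beside 10% of all genes. In wild type 38 lay above the all-gene median and 13 were in the top 10%, beside the same 50% and 10%. Without chromosome IV left 33 of 53 lay above the median in the spp1 strain and 5 were in its top 10%, and 35 lay above the median in wild type and 12 were in its top 10%. Some other lists of tRNA pathway genes also stood high in wild type, and others did not. Of 21 genes for RNA polymerase III and its factors 17 lay above the wild-type median and 6 were in the top 10%, and of 20 cytosolic tRNA synthetase genes 17 and 5. Of 9 genes for tRNA binding, export and decay these were 7 and 2. Of 8 RNase P genes they were 4 and 1, and of 15 other tRNA modification genes 8 and 1. Of 7 genes for threonylcarbamoyladenosine they were 4 and 0. Whether the larger share in the top 10% of wild type differs from that of another list was not tested. DUS1 ranked 1754 from the top of all genes in the spp1 strain and 12 in wild type. TRM82 ranked 203 from the top in the spp1 strain and 22 in wild type. Across the 56 genes, levels in the spp1 strain and in wild type had a Spearman correlation of 0.65, and across all genes 0.76. Without chromosome IV left the values were 0.67 and 0.76. This describes genes from the same pair of libraries.

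**Figure D2:**
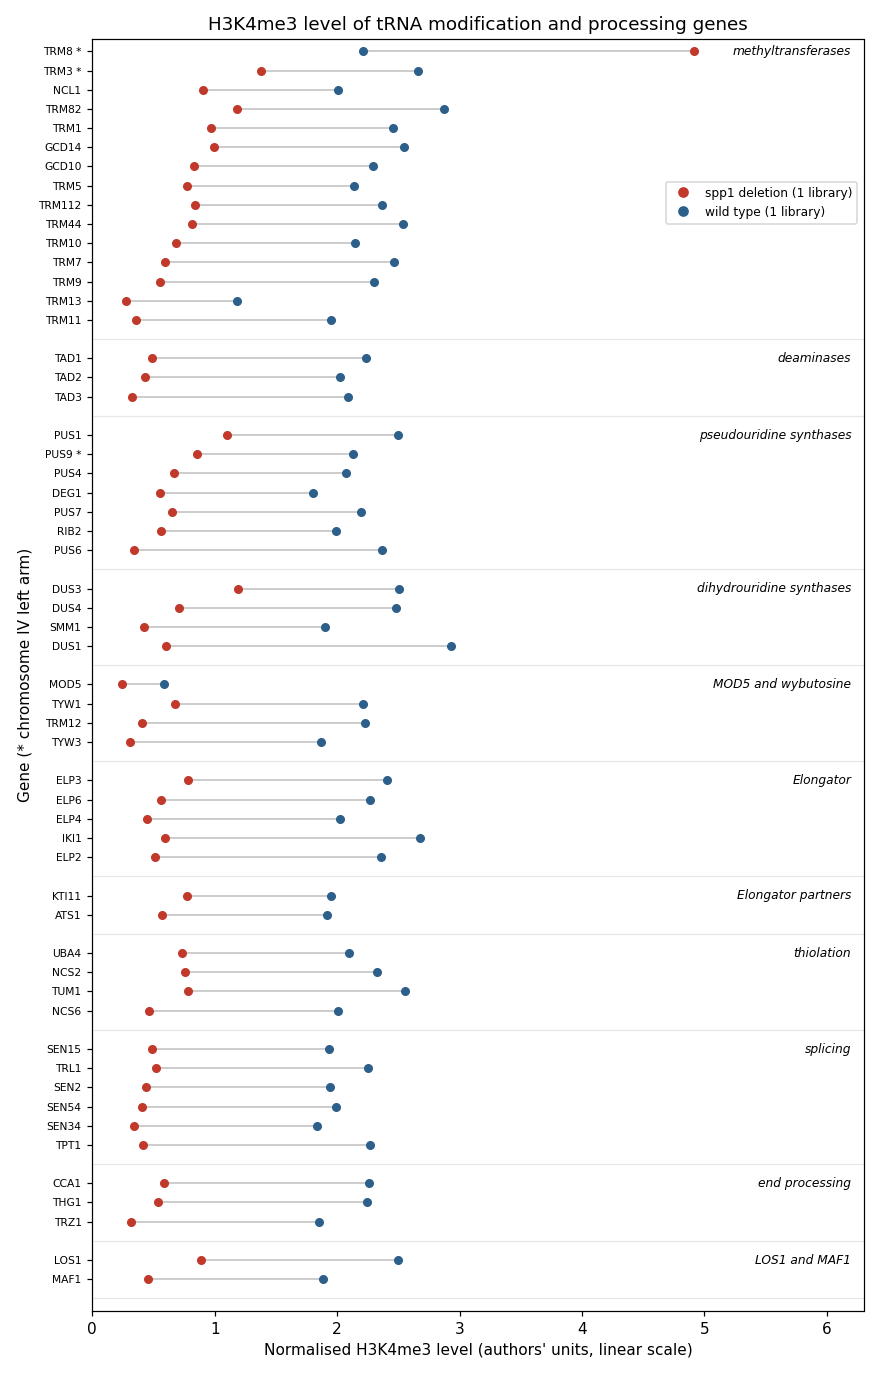
Normalised H3K4me3 level of each of 55 genes in the spp1 strain (red) and in wild type (blue), 1 library each, on a linear scale, grouped by role and ordered by the ratio within a role; stars mark chromosome IV left. Every gene but TRM8 has its spp1 level below its wild-type level, and wild-type levels cluster around 2.21 with MOD5 far below.

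Methyltransferase genes had a median ratio above that of all genes. Among 15 measured genes the median was 36.0% of wild type, or 35.5% for the 13 outside chromosome IV left. On the log2 scale that is 0.45 above all genes, with an interval over genes of -0.12 to 0.64 that spans no difference. Against genes of like wild-type level (10 classes of equal size) the median lay 0.25 above, where the pseudouridine synthase genes lay 0.30 above and the 2 Elongator partner genes 0.47 above. Of the 15 genes, 11 lay above the all-gene median ratio and 5 lay over 1.5-fold above it, beside 15% of all genes. None lay over 1.5-fold below it, beside 11.2% of all genes. Without chromosome IV left 9 of the 13 lay above the all-gene median ratio and 3 lay over 1.5-fold above it.

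TRM8 and TRM82 encode the catalytic and the supporting subunit of one enzyme, which makes 7-methylguanosine in the variable loop. TRM82 (YDR165W, chromosome IV, 784871 to 786205) had levels of 1.18 in the spp1 strain and 2.87 in wild type, or 41.1%. TRM8 (YDL201W, IV, 99561 to 100421) had levels of 4.91 in the spp1 strain and 2.21 in wild type. Its 222.1% made it the only member above its wild-type level, beside 0.337% of all genes, and its spp1 level ranked 4 from the top of the table. The 17 genes of the table above wild type all lay on its arm, and how far the gap between these partners follows the scatter there was not tested. TRM3, on the same arm, encodes the enzyme for 2′-O-methylguanosine in the D-loop and had levels of 1.38 in the spp1 strain and 2.66 in wild type.

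Outside that arm, NCL1 had the highest ratio of the methyltransferase genes. It encodes the 5-methylcytosine enzyme also called Trm4, and its levels were 0.902 in the spp1 strain and 2.01 in wild type, or 45.0%. Its level stood at percentile 89.2 of the spp1 library and at percentile 49.0 of the wild-type library. TRM1, for dimethylguanosine at the junction of the D and anticodon stems, had 0.972 in the spp1 strain and 2.46 in wild type, or 39.6%. GCD10 and GCD14 encode the partners that make 1-methyladenosine in the T-loop, first found as regulators of GCN4 translation. They lie on different chromosomes and had similar ratios: GCD10 had 0.833 in the spp1 strain and 2.29 in wild type (36.3%), and GCD14 had 0.991 in the spp1 strain and 2.54 in wild type (38.9%). TRM5, whose enzyme methylates the guanosine next to the anticodon, lay at 36.0%.

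TRM112 encodes a small activating subunit shared by several methyltransferases, Trm9 and Trm11 among them. It had levels of 0.841 in the spp1 strain and 2.37 in wild type, or 35.5%. TRM9, whose enzyme finishes the wobble uridine side chain begun by Elongator, lay at 24.1%. TRM11, for 2-methylguanosine, had 0.361 in the spp1 strain and 1.95 in wild type, and its 18.5% was the lowest of this role. The shared subunit's gene had a higher ratio than those of both partners. TRM44, for 2′-O-methyluridine in serine tRNA, lay at 32.2%, TRM10, for 1-methylguanosine in the core, at 32.0%, and TRM7, for 2′-O-methylation in the anticodon loop, at 24.3%. TRM13, for 2′-O-methylation of the acceptor stem, had low levels of 0.274 in the spp1 strain and 1.18 in wild type, or 23.2%. TRM13 (XV, 83834 to 85264) and TRM11 (XV, 85456 to 86757) end towards each other on chromosome XV, and both lay under the all-gene median ratio.

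Deaminase genes all lay low. TAD2 and TAD3 encode the partners that turn the wobble adenosine into inosine. TAD3 (YLR316C, XII, 765266 to 766358) had levels of 0.327 in the spp1 strain and 2.09 in wild type, or 15.7%. It overlaps another annotated gene, YLR315W, and reads over the overlap cannot be assigned to either. TAD2 had 0.428 in the spp1 strain and 2.02 in wild type, or 21.1%. TAD1, which acts on the adenosine beside the anticodon of alanine tRNA, lay at 21.9%. All 3 were below the all-gene median ratio, and TAD3 was over 1.5-fold below it.

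Pseudouridine synthase genes ran from 14.4% to 44.1% of wild type. The 7 genes had a median of 30.6% (30.1% for 6 genes without that arm), and 6 of the 7 lay above the all-gene median ratio (5 of 6 without that arm). PUS1 (YPL212C, XVI, 151515 to 153149), for a nuclear enzyme with many sites, had levels of 1.10 in the spp1 strain and 2.50 in wild type, or 44.1%. PUS6 (YGR169C, VII, 834689 to 835903), for a single-site enzyme, had 0.341 in the spp1 strain and 2.37 in wild type. Its 14.4% was the lowest ratio of the whole list and ranked 136 from the bottom of all genes. PUS1 stood at percentile 94.7 of the spp1 library and 93.8 of the wild-type library, and PUS6 at 26.6 of the spp1 library and 86.4 of the wild-type library. PUS9, for a mitochondrial enzyme, had 0.854 in the spp1 strain and 2.13 in wild type, on chromosome IV left. PUS4, for the T-loop pseudouridine, lay at 32.1%, DEG1 (Pus3), for the anticodon stem, at 30.6% and PUS7 at 29.5%. RIB2, whose protein also carries the deaminase of riboflavin synthesis, lay at 28.4%.

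The 4 dihydrouridine synthase genes, none of them on that arm, ran from 20.7% to 47.5%. DUS3 (YLR401C, XII, 922442 to 924448), whose enzyme acts in the variable loop, had levels of 1.19 in the spp1 strain and 2.50 in wild type. Its 47.5% was the highest ratio of the list outside chromosome IV left. DUS1, for the D-loop, had 0.606 in the spp1 strain and 2.93 in wild type, or 20.7%, although its wild-type level was the highest of the list. DUS4 lay at 28.5% and SMM1 (Dus2) at 22.0%. DUS3 and DUS4 lie close together on chromosome XII. DUS4 starts at 929789, and had levels of 0.707 in the spp1 strain and 2.48 in wild type.

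Around the anticodon of phenylalanine tRNA, wybutosine is built on the methylguanosine that Trm5 makes. TYW1, for the iron-sulfur enzyme of the next step, had levels of 0.678 in the spp1 strain and 2.21 in wild type, or 30.6%. TRM12, for the transferase that follows, lay at 18.4%, and TYW3, for a later methylation, at 16.3%, with levels of 0.304 in the spp1 strain and 1.87 in wild type. The list's genes of this chain lay between 16.3% at TYW3 and 36.0% at TRM5. PPM2, among the other tRNA modification genes outside the list, lay at 19.1%. MOD5, for isopentenyladenosine next to the anticodon, had the lowest wild-type level of the list, with 0.245 in the spp1 strain and 0.589 in wild type, or 41.6%. Its levels stood at percentiles 12.2 in the spp1 strain and 4.21 in wild type. The 1st percentile of levels was 0.149 in the spp1 library and 0.362 in the wild-type library, so this ratio compares levels near the floor of the table.

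Elongator begins the side chain on wobble uridines, and 4 of the 5 genes reported lay below the all-gene median ratio. The median was 22.2% of wild type, and the genes other than ELP3 lay between 21.7% and 24.8%. ELP2, a core subunit, had levels of 0.513 in the spp1 strain and 2.36 in wild type (21.7%), and of the ring subunits IKI1 (Elp5) lay at 22.2%, ELP4 at 22.2% and ELP6 at 24.8%. ELP3, the catalytic subunit, had 0.783 in the spp1 strain and 2.41 in wild type, or 32.5%. Log2 ratios had a standard deviation of 0.24 over these 5 genes, against 0.43 over the 53 list genes outside chromosome IV left. That smaller spread is a description of 5 genes and was not tested. Nor was it particular to Elongator. Over the other roles outside that arm the standard deviation ran from 0.19 for splicing genes to 0.63 for MOD5 with the wybutosine genes.

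In this list, the 2 measured Elongator partner genes and the 4 genes that add sulfur to the same uridines had higher ratios than most of the complex. This covers no gene outside the list. Against genes of like wild-type level the thiolation median lay 0.04 above on the log2 scale and the Elongator median 0.23 below. KTI11 (Dph3), an electron carrier used by Elongator and by diphthamide synthesis, had levels of 0.770 in the spp1 strain and 1.95 in wild type, or 39.5%, and overlaps an annotated gene on the other strand. ATS1 (Kti13), its binding partner, lay at 29.9%. In the thiolation pathway, UBA4, which activates the sulfur carrier Urm1, had 0.731 in the spp1 strain and 2.10 in wild type, or 34.8%. TUM1, a sulfur transferase, lay at 30.6%. The thiolase partners NCS2 and NCS6 lay at 32.5% and 23.1%, with NCS2 at 0.755 in the spp1 strain and 2.33 in wild type and NCS6 at 0.464 in the spp1 strain and 2.01 in wild type. URM1 itself lies on chromosome IX, where the table has no spp1 level.

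**Figure D3:**
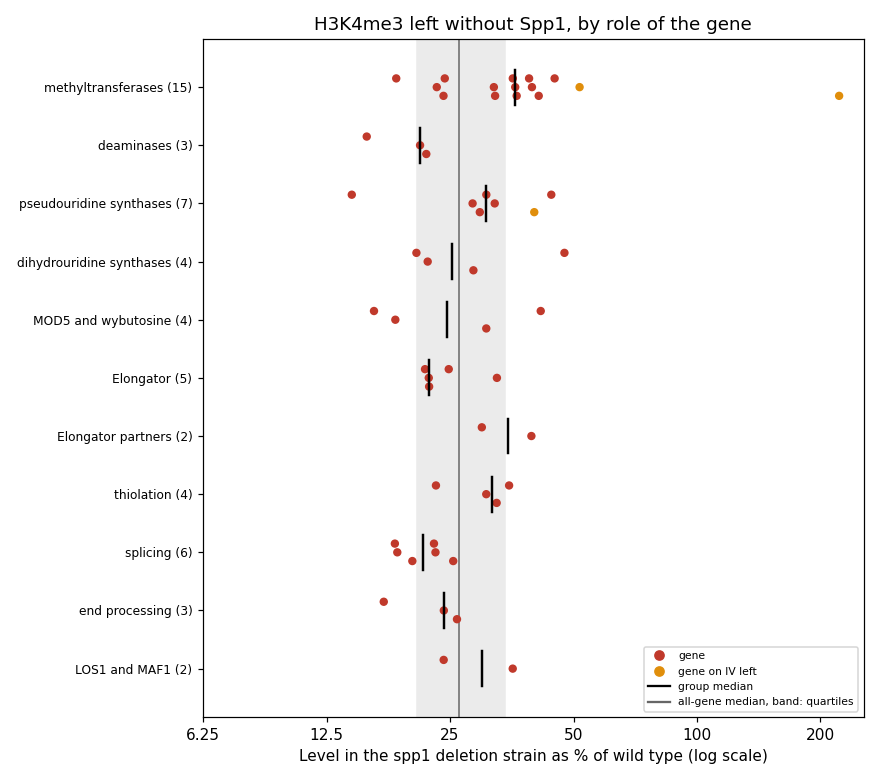
Level in the spp1 strain as a percentage of wild type (log scale) for each gene, by role, with group medians as black bars, the all-gene median of 26.3% as a grey line and the quartiles of all genes as a band; orange points are on chromosome IV left. Splicing and deaminase genes all lie left of the grey line, and 11 of 15 methyltransferase genes lie right of it.

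Splicing genes all had low ratios. All 6 lay below the all-gene median ratio, with a median of 21.5% of wild type, 0.29 below all genes on the log2 scale (interval over genes -0.52 to -0.05). With 6 genes that interval is their full range, from TPT1 to SEN15, and adds nothing to the count. The 4 subunits of the tRNA splicing endonuclease had modest wild-type levels, from 1.83 to 1.99, all under the all-gene median. SEN34 and SEN2 are the catalytic subunits. SEN34 had levels of 0.341 in the spp1 strain and 1.83 in wild type (18.6%), and SEN2 had 0.443 in the spp1 strain and 1.94 in wild type (22.8%). SEN54 lay at 20.2% and SEN15 at 25.4%. TRL1, the ligase that joins tRNA exons and also splices HAC1 mRNA, had 0.518 in the spp1 strain and 2.25 in wild type (23.0%). TPT1, which removes the phosphate the ligase leaves behind, had 0.416 in the spp1 strain and 2.27 in wild type (18.3%). The highest splicing gene, SEN15, lay below 11 of the 15 methyltransferase genes.

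Of the end processing genes, TRZ1 and THG1 lay below the all-gene median ratio and CCA1 lay close to it. TRZ1, the 3′ endonuclease, had levels of 0.320 in the spp1 strain and 1.86 in wild type, or 17.2%, over 1.5-fold below the all-gene median ratio. THG1, which adds the extra guanosine of histidine tRNA, lay at 24.1%, and CCA1, which adds the CCA end, at 26.0%. CCA1 lay above the all-gene median ratio by 0.008 on the log2 scale where wild-type level had to reach its 10th percentile, and by 0.05 after background subtraction. LOS1, the tRNA exportin, had 0.888 in the spp1 strain and 2.50 in wild type, or 35.5%. MAF1, a repressor of RNA polymerase III rather than a processing factor, lay at 24.1%.

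Over the whole list, 9 genes lay over 1.5-fold above the all-gene median ratio, beside 15% of all genes, and 4 lay over 1.5-fold below it, beside 11.2%. The 9 were TRM8, TRM3, DUS3, NCL1, PUS1, MOD5, TRM82, PUS9 and TRM1, of which the first 2 and PUS9 are on chromosome IV left. The 4 were PUS6, TAD3, TYW3 and TRZ1. Without that arm 6 of 53 lay over 1.5-fold above the same median and the same 4 below it. Of all genes outside that arm 14.2% and 10.9% did. With the median taken only over genes outside that arm, 7 of the 53 lay over 1.5-fold above and 4 below. The names depend on the comparison. Against genes of like wild-type level, TRM8, TRM3, DUS3 and NCL1 stayed over 1.5-fold above, and KTI11 also lay there, at 0.67 on the log2 scale. PUS1 at 0.51, PUS9 at 0.49, TRM82 at 0.41, MOD5 at 0.38 and TRM1 at 0.36 did not. On the low side PUS6 and TAD3 stayed over 1.5-fold below. TYW3, at -0.47 on the log2 scale, and TRZ1, at -0.39, did not, while TPT1 and TRM12, each at -0.62, did lie that far below. Against the median ratio of all genes, GCD14 and KTI11 lay just under the higher threshold. Around 25% of wild type, ELP6 at 24.8% and SEN15 at 25.4% were the nearest genes on either side, and around 50%, DUS3 at 47.5% and TRM3 at 51.7%. Scaling both libraries to the same total takes out a shared scaling factor, and 26 of the 56 genes then lay above wild type, beside 38.4% of all genes. Without chromosome IV left these were 23 of 53 genes. On that scale the list's median log2 ratio was -0.12 and that of all genes -0.17.

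Genes that act on tRNA beside these enzymes were set next to them. The cytosolic tRNA synthetase genes, which load amino acids, had a median of 39.9% of wild type over 20 genes. Of these, 19 lay above the all-gene median ratio, beside 50% of all genes, and 11 over 1.5-fold above it, beside 15%. They ran from HTS1 at 23.3% to SES1, with levels of 1.37 in the spp1 strain and 2.30 in wild type, or 59.5%. Against that, 28 of the 56 modification and processing genes lay above the all-gene median ratio. On the log2 scale the synthetases lay 0.60 above all genes, and the modification and processing genes 0.04 above. The synthetase value was 0.40 with 10% of the median wild-type level added to both levels, and 0.83 after background subtraction. Against genes of like wild-type level it was 0.44.

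The medians of the other lists lay closer to that of all genes. RNA polymerase III subunits and factors had a median of 27.3% (21 genes, 13 above the all-gene median ratio, or 12 of 20 without chromosome IV left), from 14.8% for TFC3 to 83.6% for RPC53, a gene of chromosome IV left. Protein genes of RNase P, which trims the 5′ end, had a median of 25.8% (8 genes, 4 above), from POP8 at 12.8% to POP6 at 41.6%. Genes for threonylcarbamoyladenosine, with the KEOPS complex, had a median of 23.1% (23.7% over 6 genes without that arm). None of the 7 was above the all-gene median ratio. On the log2 scale the median of the 7 lay at -0.19 relative to all genes, with an interval over genes of -0.41 to -0.01. With 7 genes that interval is their full range. It ran from -0.36 to 0.18 with 10% of the median wild-type level added to both levels. The 7 genes ran from PCC1 at 19.8% to BUD32 at 26.1%. PCC1 had levels of 0.134 in the spp1 strain, below the 1st percentile of 0.149 there, and 0.680 in wild type. Genes for tRNA binding, export and decay had a median of 27.9% (9 genes, 5 above, or 4 of 8 without that arm), from RNY1 at 18.6% to ARC1 at 62.9%. ARC1 encodes a cofactor of tRNA synthetases. Other tRNA modification genes outside the list had a median of 24.8% (15 genes, 7 above, or 6 of 13 without that arm), from SIT4, on chromosome IV left, at 6.93% to SLM3, on the same arm, at 43.4%. Of these 15 genes 5 lay over 1.5-fold below the all-gene median ratio, or 4 of 13 without that arm, beside 11.2% of all genes.

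**Figure D4:**
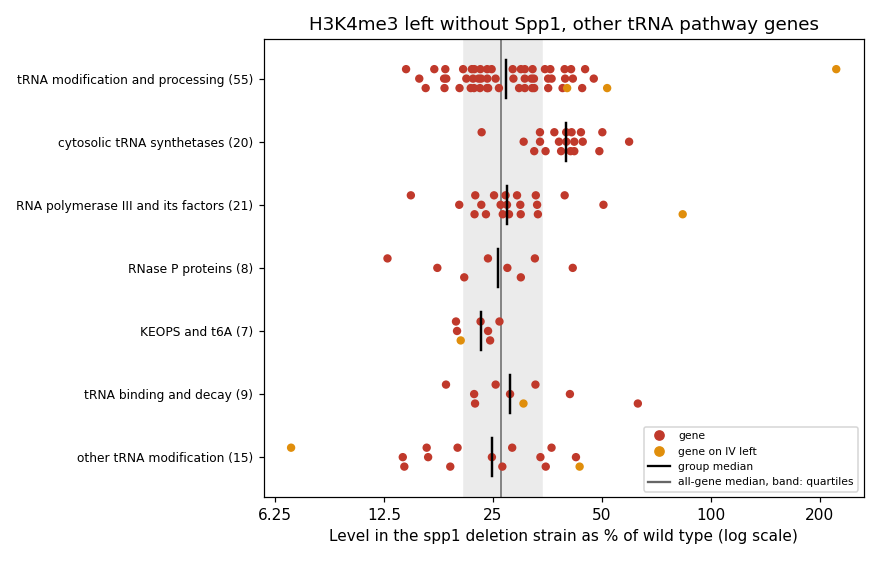
Level in the spp1 strain as a percentage of wild type (log scale) for 55 modification and processing genes and for 6 other lists of tRNA pathway genes, with list medians as black bars (27.2% for the first list, over all 56 of its genes), the all-gene median as a grey line and the quartiles of all genes as a band. The synthetase points centre on 39.9%, to the right of the band, and the 7 KEOPS points all lie left of the grey line.

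Since a start region can be shared with an adjoining gene, each gene was set beside the annotated gene upstream of it. For 32 of the 56 the upstream gene pointed away (divergent) and for 24 it pointed the same way (tandem). Genes with a divergent neighbour had a median of 30.2% of wild type and those with a tandem neighbour 24.2%, against 26.8% and 25.8% over all genes. Without chromosome IV left the values for the list were 29.9% over 31 genes and 23.6% over 22. Among tandem genes 10 of 24 lay above the all-gene median ratio, and among divergent genes 18 of 32. Over all genes these were 1153 of 2411 and 1315 of 2527. Without chromosome IV left they were 8 of 22 and 17 of 31 for the list. Over all genes outside that arm they were 1101 of 2312 and 1245 of 2417. How much of this follows from which roles have which neighbours was not tested.

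The ratio of a gene was not closely tied to that of its upstream neighbour. Outside chromosome IV left the Spearman correlation of the log2 ratios was 0.046 over 25 divergent pairs and -0.23 over 20 tandem pairs. Over all genes outside that arm it was 0.12 and 0.091. TRM5 and its divergent neighbour RRP4, an exosome gene 222 bases away, lay at 36.0% and 35.8%. PUS6 is a case of the opposite kind, at 14.4%, while LSO2, 483 bases upstream, had levels of 1.32 in the spp1 strain and 1.64 in wild type, or 80.8%. TRM9 lay at 24.1% and its divergent neighbour TAF11, 195 bases away, at 51.0%. TRM8 and TRM3 stood beside MRPL11 at 100.5% and ATG20 at 100.5%, on the arm where ratios scatter.

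**Figure D5:**
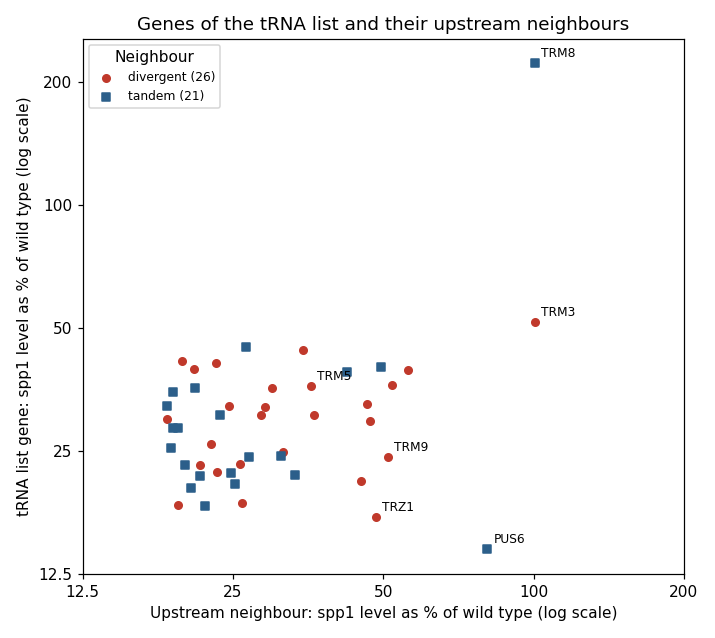
Level in the spp1 strain as a percentage of wild type for each list gene (vertical) and for the annotated gene upstream of it (horizontal), both on log scales, for 26 divergent (red circles) and 21 tandem (blue squares) pairs with levels for both genes. The points form no clear line, with PUS6 at 14.4% beside a neighbour at 80.8%.

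Gene length and distance to tRNA genes were also looked at. Across the 53 list genes outside chromosome IV left, the Spearman correlation of the log2 ratio with gene length was 0.21, against -0.12 over all genes outside that arm. With wild-type level it was 0.29, against 0.21. The ratio is taken over wild-type level, so the correlation with wild-type level holds a shared term. The correlation with length had the opposite sign to that over all genes, and why was not tested. Both correlations describe the table and are no result about tRNA genes. A tRNA gene lay within 2000 bases of 5 members, THG1, TYW3, TRM12, TRM5 and TAD2, whose ratios ran from 16.3% to 36.0%. How many of all genes lie that near a tRNA gene was not counted, so this is no result about the list.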

How the data were processed

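The authors deposited 1 normalised H3K4me3 signal per gene for each of 2 libraries, the spp1 and the wild-type H3K4me3 library, per the file headers. The series has 4 libraries, and the others were not analysed here. Nuclei were digested with micrococcal nuclease and fission yeast cells were added as a spike-in at 25% of the volume, per the labels' protocols. Bowtie2, SAMtools and bedtools were used with builds sacCer3 and ASM294v2, per the submitters' processing notes. The sources used here do not give the route from reads to levels. Depth is unknown, since the signal holds no counts, so no counting interval is given.

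Of 5219 genes, 5116 matched by systematic name to RefSeq's annotation of assembly R64, whose 1-based coordinates are printed. Strand was read from the W or C that follows the digits of the systematic name. Log2 ratios of spp1 over wild type used the deposited levels without pseudocount or filter. Medians carry 95% binomial order-statistic intervals over genes, or the range under 6 genes. Values were computed with Python 3.11.15, pandas 2.3.3, NumPy 2.4.6 and SciPy 1.17.1, and the median routine was tested on simulated data. Members, roles and other lists were chosen with earlier results of these data known. One member is counted in the list but not reported by itself, in a role or in a figure. The other members may be named, with fuller values for the extremes of each role, partner subunits and genes on chromosome IV left. Neighbours printed were chosen after their values were seen. Alternatives covered a pseudocount, floors on wild-type level, scaling to own totals, exclusion of chromosome IV left, of overlapping genes and of MAF1, background subtraction, and identical levels counted once. Comparison within 10 classes of wild-type level was chosen after seeing the data.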

Additional observations from a re-analysis of the deposited data

How the results depend on the processing

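No paired analysis was possible because each strain has 1 library and no result comes from a test, and for the same reason no replicate could be left out. The list's difference from all genes lay between -0.04, without chromosome IV left, and 0.12, with the 1st percentile of each library subtracted, and every role's median kept its sign under every alternative that gave a value. After adding 10% of the median wild-type level to both levels, the list's median log2 ratio was -1.55, the count under 25% of wild type 4, the counts over 1.5-fold above and below the all-gene median 4 and 1, and the deaminase difference from all genes -0.26. Where wild-type level had to reach its median, 15 members lay under 25% and 4 lay over 1.5-fold above, and the Elongator difference was -0.39. With both libraries scaled to the same total the median log2 ratio was -0.12, and 0 members lay under 25% and 1 under 50%. With background subtraction 16 members lay over 1.5-fold above and 8 below, the methyltransferase difference was 0.65 and the thiolation difference 0.42. Within 10 classes of wild-type level, a choice made after seeing the data, 5 members lay over 1.5-fold above. The causes were not tested. The floors leave fewer genes, and no Elongator partner is left above the higher one. Of the other values, 107 moved and 418 did not, and the direction of no gene over 1.5-fold from the all-gene median was turned. CCA1, at -0.02, lay at 0.008 with the 10th percentile floor and at 0.05 with background subtraction, TRM13 at 0.03 with the pseudocount against -0.18, and DUS4 at -0.03 with the median floor against 0.11. Counts of promoter motifs were not run, since no sequence was used here. Depth is unknown and sets no stated limit.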
